A study of Mus musculus with 6 samples.

Results

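Bone morphogenetic proteins (BMPs) are held in check outside the cell by a group of antagonists and modulators, and 9 genes of this group were followed in mouse Müllerian duct mesenchyme. They were Nog, Grem1, Chrd, Chrdl1, Fst, Fstl1, Bmper, Bambi and Twsg1, taken by gene symbol from the 37991 gene rows of each library, and all 9 had a row. RNA sequencing was done on 3 male and 3 female libraries of YFP-positive cells sorted from embryos at embryonic day 14.5. Every embryo had the genotype Amhr2Cre/+, R26R YFP/+ on a mixed strain background (C57BL/6J x 129/SvEv), so male and female cells alike carried the Cre allele at the AMH receptor locus and the YFP reporter. YFP marks cells with Amhr2-Cre activity and their descendants, which can include gonadal cells, and each library was a pool of 2 to 7 embryos. The comparison was between male mesenchyme, which surrounds a duct that will regress under AMH (anti-Müllerian hormone), a product of the fetal testis, and female mesenchyme, whose duct persists.

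BMPs are secreted dimers that bring type I and type II serine/threonine kinase receptors together and activate SMAD1, SMAD5 and SMAD9. AMH belongs to the same superfamily and signals through its own type II receptor and the BMP type I receptors and SMADs. Extracellular antagonists bind the ligands and keep them from the receptors, some modulators carry ligands or release them again, and several of these genes are themselves induced by BMP signalling and act as feedback inhibitors. In the Müllerian duct the AMH response takes place in the mesenchyme, which acts on the neighbouring epithelium.

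Libraries held 22511872 to 24749859 counts in genes, and 3 counts corresponded to 0.110 to 0.148 CPM (counts scaled to a common library size). Sex-linked genes matched the label in all 6 libraries. The 9 markers listed for the mesenchyme were all tested, with a summed level of 2136 to 3352 CPM in male and 2196 to 2494 CPM in female libraries, and Amhr2 alone stood at 160 to 462 CPM in male and 324 to 784 CPM in female libraries. The sum hides markers that went opposite ways. Emx2, Hoxa10 and Hoxa11 were below the female range in every male library and Pdgfra was above it, while the others overlapped. None of the 9 was called in the edgeR test over all genes. Both replicate 1 libraries lay at one end of the first principal component (65.6% of the variance) and both replicate 2 libraries at the other, and counts outside annotated genes made up 18.2% and 17.5% in male and female replicate 1 and 3.53% to 8.65% in the others. The edgeR quasi-likelihood test (adjusted p threshold 0.05) covered 15227 genes and called 128 higher and 59 lower in male cells, and with an offset for transcript GC content and length 449 were higher and 433 lower. In bulk libraries, more RNA of a gene per cell and more cells of a type that expresses it cannot be told apart.

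Male mesenchyme held more Bmper, which rose about 5.62-fold, and the levels of Nog, Bambi and Fstl1 were also above the female range in every male library without passing the test over all genes. Of the 9 genes 8 had enough counts to be tested, all but Grem1. In the edgeR test 1 of the 8 was higher in male, where 0.841% of all genes tested were. None was lower, where 0.387% of all genes were, and no member that leaned lower had an unadjusted p under 0.05. DESeq2 called 3 members higher and 0 lower, where 2.92% of all genes were higher and 2.15% lower, and limma-voom called 2 higher and 0 lower, where 0.972% of all genes were higher and 0.453% lower. The same 2 genes, Bmper and Nog, were called higher by edgeR with no filter on low counts (0.608% of all genes higher and 0.271% lower), with a filter of 1 CPM in 3 libraries (0.956% and 0.452%) and with the GC and length offset (2.95% and 2.84%). In 4 of the 8 every male library lay above every female library, which held for 6.47% of genes tested. None lay entirely below, which held for 7.27%. The median log2 fold change of the 8 was 0.46, against −0.01 over all genes tested.

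**Figure D1:**
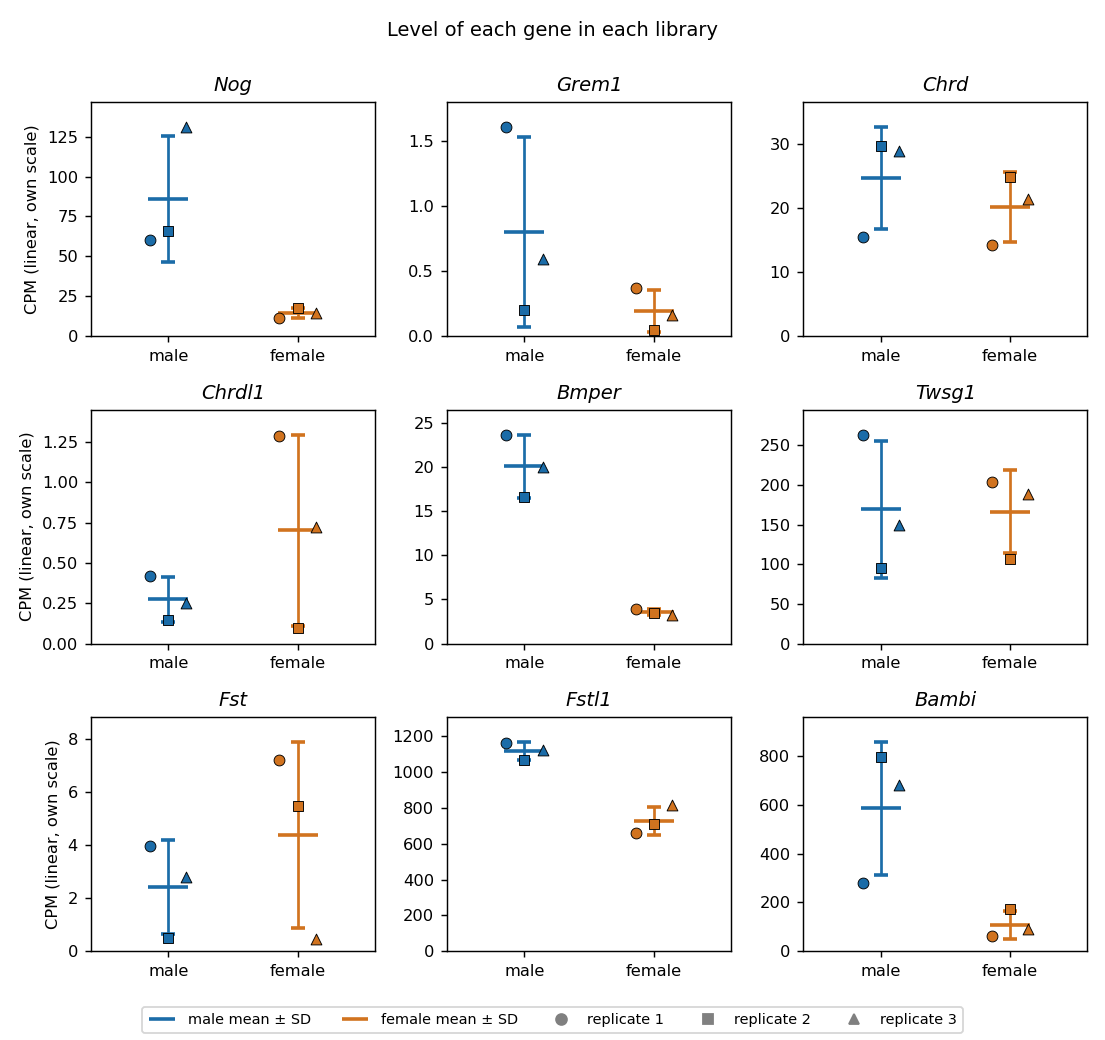
Level of each of the 9 genes in each library, in CPM on a linear axis that has its own scale in each panel, with male libraries left of female ones. Points are single libraries, with the replicate number given by the symbol, and bars are the mean and SD of 3 libraries. The male and female points do not overlap for Nog, Bmper, Fstl1 and Bambi, and they overlap for the other 5 genes.

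Nog and Grem1 encode small cystine-knot proteins that bind BMP dimers directly and block their receptor contacts. Nog (ENSMUSG00000048616), or noggin, stood at 60.4, 66.1 and 131 CPM in male replicates 1 to 3, against 11.5, 17.7 and 14.7 CPM in female replicates 1 to 3. The lowest male library was more than 3 times the highest female one, and male replicate 3 stood far above the other male libraries. The means were 85.9 ± 39.4 CPM in male and 14.6 ± 3.06 CPM in female libraries (SD, n = 3 each). The log2 fold change of Nog was 2.55 (SE 0.44) and just missed the threshold over all genes (edgeR adjusted p = 0.0531). Nog passed by DESeq2 (adjusted p = 2.63e-06), by limma-voom (0.0489), with the GC and length offset (0.0240) and without male replicate 1 (0.0427). It did not pass without any other single library (edgeR adjusted p 0.124 to 0.362) or with 3 other scalings (0.0516 to 0.0529), and 9 of 19 alternatives passed. Over the 19 its log2 fold change lay between 2.10 and 2.87.

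Grem1 (ENSMUSG00000074934), or gremlin 1, had low counts, with the most in male replicate 1. Male replicates 1 to 3 held 42, 4 and 14 counts of it and female replicates 1 to 3 held 10, 1 and 4. These corresponded to 0.798 ± 0.727 CPM in male and 0.192 ± 0.162 CPM in female libraries (SD, n = 3 each), and the ranges overlapped. In a fit with no filter on low counts the log2 fold change of Grem1 was 1.98 (SE 0.88, edgeR adjusted p = 0.732).

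Chrd, Chrdl1, Bmper and Twsg1 belong to the chordin system. Chordin traps BMPs through cysteine-rich repeats, twisted gastrulation (Twsg1) stabilises that complex and also helps proteases to cut it, and Bmper, the vertebrate crossveinless-2, binds both BMPs and chordin and can either block or promote signalling. Bmper (ENSMUSG00000031963) stood at 23.6, 16.6 and 19.9 CPM in male replicates 1 to 3, against 3.97, 3.44 and 3.28 CPM in female replicates 1 to 3. Both sets were tight, with coefficients of variation of 17.7% in male and 10.1% in female libraries, and the gap between them was larger than either spread. The log2 fold change of Bmper was 2.49 (SE 0.34, edgeR adjusted p = 0.0281), from means of 20.0 ± 3.54 CPM in male and 3.56 ± 0.359 CPM in female libraries (SD, n = 3 each). The size of the difference moved little, from 2.35 to 2.61 on the log2 scale over 19 alternatives. The call did not survive the loss of most single libraries: the edgeR adjusted p was 0.0808 without male replicate 2, 0.178 without male replicate 3, and 0.111, 0.0923 and 0.254 without female replicates 1, 2 and 3, and it held without male replicate 1 (0.0433). The DESeq2 adjusted p was 3.81e-10.

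The other members of the chordin system overlapped between the sexes. Chrd (ENSMUSG00000006958) stood at 15.6, 29.8 and 29.0 CPM in male replicates 1 to 3 and at 14.2, 24.98 and 21.4 CPM in female replicates 1 to 3. In both sexes replicate 1 was the lowest library, and the log2 fold change of Chrd was 0.30 (SE 0.40, edgeR adjusted p = 1). Exons of Chrd overlap those of Thpo on the opposite strand in the reference annotation, and the library kit does not mark strand. Thpo had at most 16 counts in any library. Counts on more than 1 gene were left out, so this does not show how many reads of shared exons were lost to Chrd. Twsg1 (ENSMUSG00000024098) was abundant and stood at 263, 95.3 and 149 CPM in male replicates 1 to 3, against 204, 106 and 189 CPM in female replicates 1 to 3. Here replicate 1 was the highest library and replicate 2 the lowest in both sexes, and the male and female means, 169 ± 85.8 and 166 ± 52.6 CPM (SD, n = 3 each), differed by less than the spread within either sex. The log2 fold change of Twsg1 was 0.02 (SE 0.48) and took either sign among the alternatives, from −0.45 to 0.30. Chrdl1 (ENSMUSG00000031283), chordin-like 1, had 11, 3 and 6 counts in male replicates 1 to 3 and 35, 2 and 18 in female replicates 1 to 3. Its lowest female library, at 0.0983 CPM, lay below all 3 male libraries, and the log2 fold change was −1.34 (SE 0.87, edgeR adjusted p = 0.941).

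The reference promoters of the gene that rose and of the abundant gene with a log2 fold change near 0 are shown for comparison, as the 250 bases before the transcription start from RefSeq on GRCm38.p6. The Bmper window is chr9:23222826-23223075 on the plus strand and the Twsg1 window is chr17:65951188-65951437 on the minus strand, both 5′ to 3′, with capitals marking the SMAD-binding letters GTCT or their reverse complement AGAC.
Bmper: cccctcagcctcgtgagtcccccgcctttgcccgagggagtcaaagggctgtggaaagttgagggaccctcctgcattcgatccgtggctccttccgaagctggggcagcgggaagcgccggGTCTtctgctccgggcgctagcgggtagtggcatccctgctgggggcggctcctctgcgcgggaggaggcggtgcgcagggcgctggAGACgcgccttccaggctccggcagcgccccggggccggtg
Twsg1: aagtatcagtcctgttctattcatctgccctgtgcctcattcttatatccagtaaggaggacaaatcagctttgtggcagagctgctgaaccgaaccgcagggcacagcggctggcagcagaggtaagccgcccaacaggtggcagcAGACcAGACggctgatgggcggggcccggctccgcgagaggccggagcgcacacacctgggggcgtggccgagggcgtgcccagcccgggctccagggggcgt
Each window held 2 matches on either strand, which is also the median over 32851 reference promoters, of which 82.9% held at least 1. The GC-rich SMAD letters GGCGCC, which read the same on both strands and cannot overlap GTCT, were in neither window and in 9.59% of all promoters. Of the 5 members whose promoter was read, Grem1 and Chrd held 1 GGCGCC match each and Fstl1 held none. The promoters of Nog, Bambi, Fst and Chrdl1 were not read. A match or its absence in this window says nothing about binding.

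Fst and Fstl1 are follistatin-family genes. Follistatin binds activins tightly and BMPs more weakly, and follistatin-like 1 is a secreted glycoprotein that can antagonise BMP4. Fstl1 (ENSMUSG00000022816) had the highest level of the 9 genes and stood at 1163, 1065 and 1123 CPM in male replicates 1 to 3, against 661, 711 and 814.5 CPM in female replicates 1 to 3. The sexes did not overlap, and the means were 1117 ± 49.5 CPM in male and 728.7 ± 78.3 CPM in female libraries (SD, n = 3 each). The 1.53-fold difference, 0.62 on the log2 scale (SE 0.32), did not pass over all genes (edgeR adjusted p = 0.763). Fst (ENSMUSG00000021765) varied more within each sex than between them, at 3.98, 0.494 and 2.78 CPM in male replicates 1 to 3 and 7.20, 5.46 and 0.480 CPM in female replicates 1 to 3. One library in each sex, male replicate 2 and female replicate 3, held only 10 and 12 counts of Fst, and the other libraries held 66 to 196. The log2 fold change of Fst was −0.85 (SE 1.04, edgeR adjusted p = 1). The antisense gene Gm47040 overlaps Fst in the reference annotation, but it was not found by symbol among the counted genes. Without strand, reads of the 2 cannot be told apart.

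Bambi, unlike the other members, encodes a membrane protein, a decoy receptor with an extracellular domain like that of a type I receptor but no kinase. Bambi (ENSMUSG00000024232) stood at 279, 795 and 679.6 CPM in male replicates 1 to 3, against 61.7, 173 and 91.3 CPM in female replicates 1 to 3. Replicate 1 was the lowest library and replicate 2 the highest in both sexes, yet the lowest male library lay above all female ones. The means were 584.5 ± 271 CPM in male and 109 ± 57.8 CPM in female libraries (SD, n = 3 each), a 5.37-fold difference close to that of Bmper. The log2 fold change of Bambi was 2.43 (SE 0.59) and did not pass (edgeR adjusted p = 0.146). Bambi passed by DESeq2 (adjusted p = 0.00131) and without both replicate 1 libraries (edgeR adjusted p = 0.0199). It passed in none of the 6 fits without a single library (edgeR adjusted p 0.0666 to 0.679), nor without both replicate 2 or both replicate 3 libraries (0.289 and 1). Over 19 alternatives its log2 fold change lay between 2.14 and 2.94. The processed pseudogene Bambi-ps1 took 16 to 39 counts per library, against 1680 to 16129 for Bambi, and how reads were shared between the 2 copies was not tested.

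**Figure D2:**
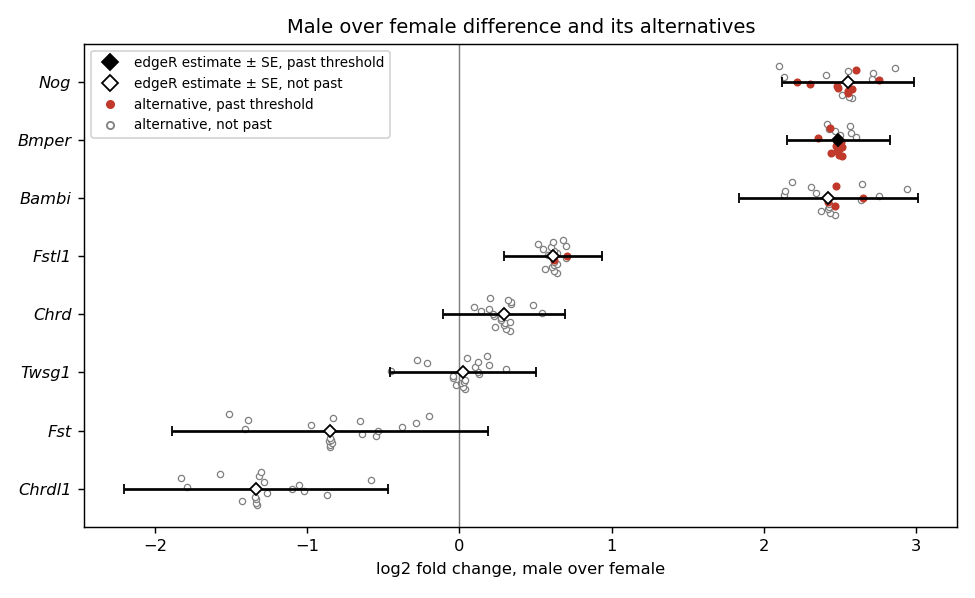
Log2 fold change, male over female, of the 8 genes tested. Diamonds are the edgeR estimates with their SE, filled where the adjusted p was under 0.05, and small points are the alternative settings, red where they passed; Nog, Bmper and Bambi lie between 2.10 and 2.94 in every setting, and Twsg1 lies on both sides of 0.

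Per kilobase of the longest reference transcript, the 9 genes spanned more than 3 orders of magnitude. Male libraries ran from 294.7 ± 13.1 CPM per kilobase for Fstl1 through 115 ± 53.4 for Bambi, 50.7 ± 23.2 for Nog and 41.4 ± 21.0 for Twsg1 to 5.62 ± 1.81 for Chrd and 5.29 ± 0.934 for Bmper (SD, n = 3). Fst, Grem1 and Chrdl1 followed at 0.828, 0.192 and 0.0669 CPM per kilobase. In male libraries the neighbours in this order whose ranges did not overlap were Fstl1 and Bambi, Twsg1 and Chrd, and Bmper and Fst, and the other neighbours overlapped. In female libraries the order was Fstl1 at 192 ± 20.7 CPM per kilobase, then Twsg1 at 40.7 ± 12.9, Bambi at 21.4 ± 11.4, Nog at 8.63 ± 1.80, Chrd at 4.58 ± 1.25, Fst at 1.499 ± 1.19 and Bmper at 0.940 ± 0.0948 (SD, n = 3), with Chrdl1 and Grem1 last. Female ranges overlapped between Twsg1 and Bambi, Fst and Bmper, and Chrdl1 and Grem1. Bambi ranked second in 2 male libraries and behind Twsg1 in male replicate 1, and second only in replicate 2 among female libraries. Noggin made up 7.52% to 13.9% of the summed level per kilobase of the 9 genes in male libraries and 2.72% to 3.91% in female libraries, and Fstl1 made up 53.2% to 64.8% in male and 69.7% to 73.1% in female libraries.

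**Figure D3:**
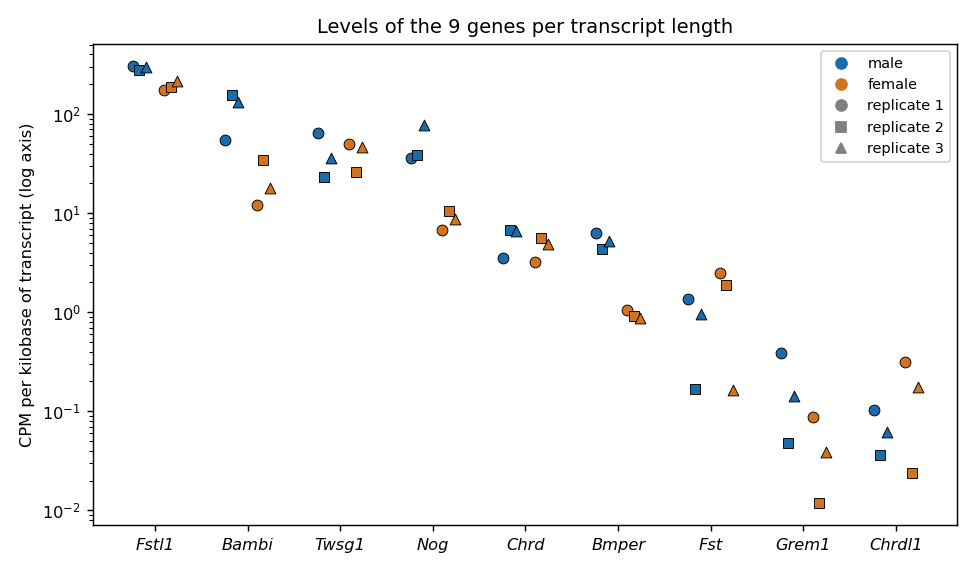
Level of the 9 genes in CPM per kilobase of transcript, on a log axis, ordered by their mean over 6 libraries, with male libraries left of female ones and replicate numbers as symbols. Fstl1 is highest in every library, and Grem1 and Chrdl1 are among the lowest 3.

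Profiles like those of Bmper and Nog were found by the root mean square difference of centred log2(CPM + 0.5) values over the 6 libraries, among 13343 other genes with a symbol and a mean of at least 1 CPM. Closest to Bmper were Ampd3, Phyhipl and Cd44, at differences of 0.174, 0.176 and 0.194. Closest to Nog were Fam181b, Chrdl2 and Lamp5, at 0.120, 0.171 and 0.228. Chrdl2, chordin-like 2, is itself a secreted BMP antagonist. Mean female levels of Chrdl2 and Phyhipl, at 0.277 and 0.171 CPM, lay below the added 0.5, which compresses their differences. Their log2 fold changes were 3.55 and 4.05, larger than the 2.55 of Nog and the 2.49 of Bmper. Around Chrdl1, the member with the lowest log2 fold change, Camta1, Hjurp and Gm973 were closest, at 0.0930, 0.117 and 0.166, but Chrdl1 lies near the pseudocount, which flattens its profile.

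Among 21 other tested extracellular modulators of BMPs and activins, 1 rose and none fell (edgeR). At an unadjusted p under 0.05, which 1398 of the 15227 genes had, 3 were higher and 4 lower, and DESeq2 called 3 higher and 2 lower and limma-voom 1 higher and 0 lower. Chrdl2 rose, at 3.25 ± 1.04 CPM in male and 0.277 ± 0.151 CPM in female libraries (SD, n = 3 each), with log2 fold change 3.55 (SE 0.56, edgeR adjusted p = 0.0410). The median log2 fold change of the 21 was 0.17. Of 4 tested chordin proteases and their enhancers none passed in either direction by edgeR, DESeq2 or limma-voom, and none had an unadjusted p under 0.05. Tll1, a tolloid protease that cuts chordin, had the smallest p of them, with 1.25 ± 1.14 CPM in male and 3.63 ± 2.65 CPM in female libraries (SD, n = 3 each) and log2 fold change −1.53 (SE 0.83, edgeR adjusted p = 0.796).

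Of 13 tested BMP and GDF ligands, AMH included, 2 rose, 1 fell and 10 did not pass, with a median log2 fold change of 0.23. Bmp7 fell to 16.99 ± 4.85 CPM in male, against 120 ± 16.0 CPM in female libraries (SD, n = 3 each), with log2 fold change −2.82 (SE 0.37, edgeR adjusted p = 0.0253). Gdf10, also called Bmp3b, rose to 195 ± 51.0 CPM in male, against 22.1 ± 6.03 CPM in female libraries, and Amh to 17.2 ± 8.24 CPM in male, against 0.653 ± 0.0898 CPM in female libraries, which came to 3.15 (SE 0.41) and 4.71 (SE 0.54) on the log2 scale. Bmp2 and Bmp4, ligands that noggin and chordin bind, were named after their values were seen and did not pass. Bmp4 stood at 11.1 ± 3.87 CPM in male and 23.3 ± 13.5 CPM in female libraries (SD, n = 3 each), and Bmp2 at 5.67 ± 2.01 CPM in male and 5.20 ± 1.15 CPM in female libraries (SD, n = 3 each). Of 4 tested activin and inhibin genes and their relatives none passed by edgeR, DESeq2 or limma-voom, and 1 had an unadjusted p under 0.05, Inhbb, an activin and inhibin beta subunit, with a log2 fold change of −1.66 (SE 0.64).

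Further down the pathway, none of 10 tested receptor genes passed in edgeR or limma-voom, while DESeq2 called 1 higher and 1 lower, and 2 higher and 1 lower had an unadjusted p under 0.05. Acvr1, a type I receptor of BMPs and AMH, had the smallest p, at 154.5 ± 10.3 CPM in male and 62.5 ± 4.54 CPM in female libraries (SD, n = 3 each) and log2 fold change 1.31 (SE 0.29, edgeR adjusted p = 0.107). Of 8 SMAD genes 1 rose, Smad9, by 3.80 on the log2 scale (SE 0.53, edgeR adjusted p = 0.0308). At an unadjusted p under 0.05, 3 of the 8 were higher and 1 lower, and DESeq2 called 3 higher and 0 lower and limma-voom 2 higher and 0 lower. Smad6, an inhibitory SMAD named after its values were seen, stood at 530.5 ± 243 CPM in male and 46.5 ± 21.2 CPM in female libraries (SD, n = 3 each) without overlap, and missed the threshold (log2 fold change 3.51, SE 0.60, edgeR adjusted p = 0.0556). Of 13 tested genes commonly induced by BMP and SMAD signalling 5 rose and none fell in edgeR, with 10 higher and 0 lower at an unadjusted p under 0.05, 8 and 0 by DESeq2 and 6 and 0 by limma-voom, and the median log2 fold change was 2.61. Smad6 and Smad7 stand in both of these lists. Over all genes tested, 0.841% were called higher by edgeR. The rise was largest for the homeobox genes Dlx5 and Msx2, by 6.99 (SE 0.54) and 6.47 (SE 0.46) on the log2 scale, and Gata3 and Hey1 had 2.81 (SE 0.39) and 2.61 (SE 0.36). Of the Id genes, named after their values were seen, Id4 rose by 2.86 (SE 0.41). Id1, Id2 and Id3 did not pass, at −0.31 (SE 0.68), 0.57 (SE 0.31) and 0.77 (SE 0.68), and Id1 and Id3 overlapped between the sexes. The calls of Chrdl2, Bmp7, Gdf10, Amh, Smad9, Gata3 and Hey1 were each lost without any single library except male replicate 1, with edgeR adjusted p up to 0.319, while Msx2 kept its call in 4 of the 6 such fits and Dlx5 in 2. Without male replicate 3 or female replicate 3 no gene of any list passed.

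**Figure D4:**
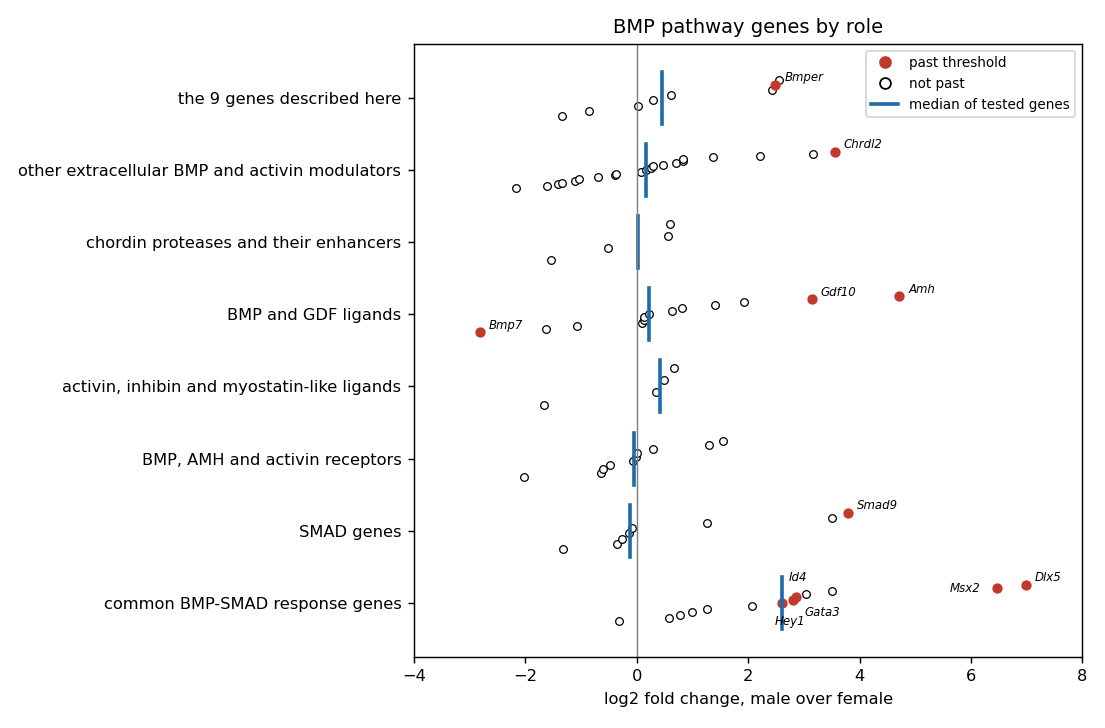
Log2 fold change, male over female, of the tested genes in each list, with the 9 genes described here in the top row, where 8 points stand for the 8 tested. Red points passed the edgeR threshold, open points did not, and blue bars are medians, which reach 2.61 in the response genes and lie between −0.11 and 0.46 in the other lists.

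Some markers of other cell types were higher in male libraries and some were lower. Whether they varied together with the 9 genes was not tested. None of 8 endothelial markers passed, and their summed level was 147 to 330.5 CPM in male and 60.0 to 101 CPM in female libraries. Most of it was Kdr, at 133 to 319 CPM in male and 40.4 to 86.1 CPM in female libraries, while Pecam1 and Cdh5 stayed between 0.841 and 2.52 CPM in every library. Esam, of the same list, was below the female range in every male library, at 2.93 ± 0.933 CPM in male and 8.94 ± 2.71 CPM in female libraries (SD, n = 3 each). Of 9 Sertoli cell markers 3 rose (Amh, Sox9 and Cst9), and Dhh and Sox8 were above the female range in every male library without passing. Ptgds, Fgf9, Gata4 and Nr5a1 overlapped between the sexes, with log2 fold changes of 0.21, 0.11, −0.03 and −0.16. The sum of the 9 was 87.7 to 167 CPM in male and 39.4 to 104 CPM in female libraries, and these ranges overlapped. None of 7 smooth muscle markers passed; 5 of them, Acta2, Tagln, Cnn1, Actg2 and Myocd, were above the female range in every male library, while the smooth muscle myosin gene Myh11 was below it in every male library, at 1.22 ± 0.817 CPM in male and 6.43 ± 2.20 CPM in female libraries (SD, n = 3 each). The smooth muscle sum was 196 to 567 CPM in male and 46.6 to 150.5 CPM in female libraries, and that of 7 neuron and Schwann cell markers, of which 1 rose, was mostly Stmn2, at 67.7 to 76.6 CPM in male and 15.4 to 30.3 CPM in female libraries. The sum of 7 pregranulosa markers, most of it Wnt4, was 272 to 553 CPM in male and 116 to 220 CPM in female libraries. The other 6 had log2 fold changes below 0: Irx5 fell, and Foxl2, Irx3 and Rspo1 were below the female range in every male library without passing, with Foxl2 at 1.88 ± 0.799 CPM in male and 9.54 ± 6.08 CPM in female libraries (SD, n = 3 each). The endothelial, smooth muscle, neuron and pregranulosa sums did not overlap between the sexes (exact permutation p = 0.1, the smallest possible with 3 against 3 libraries, and 0.3 adjusted over 12 lists). Sums of the mesothelium, duct epithelium, chondrocyte, fetal Leydig, leukocyte and erythroid lists overlapped between the sexes, and the chondrocyte marker Matn1 was at 0 in every library. Of the 8 epithelial markers 1 fell, Epcam, at 2.58 ± 0.477 CPM in male and 13.7 ± 3.08 CPM in female libraries (SD, n = 3 each, log2 fold change −2.41, SE 0.37, edgeR adjusted p = 0.0381). Their part in the levels of the 9 genes was not tested.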

How the data were processed

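The authors deposited 1 table of raw counts by Ensembl gene per library. The submitters' processing notes list TopHat, HTSeq, DESeq and mm9, with neither versions nor roles; annotation and strand setting: not given in the sources used here. For library preparation, TruSeq v2 was used on at least 100 ng of total RNA, and libraries were sequenced as paired 76-base reads, per the labels' protocols. The 5 summary lines that name no gene were left out; counts outside genes made up 3.53% to 18.2% per library and counts on more than 1 gene 6.51% to 10.0%.

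Symbols came from the reference table (32919 of 37991 identifiers). Transcript length and GC content came from the longest transcript in GENCODE M21 (GRCm38), a build other than mm9. Genes kept by filterByExpr were scaled with TMM factors, and sex was tested two-sided in a robust quasi-likelihood fit (edgeR 4.0.16, R 4.3.3) without covariates; p-values were adjusted by Benjamini-Hochberg over every gene tested. CPM use the TMM factors. The SE was obtained by dividing the size of a log2 fold change by √F. DESeq2 1.42.0, limma-voom (limma 3.58.1), other scalings and filters, a replicate block, a GC and length offset (splines with 5 degrees of freedom, 96.4% of genes with a value) and leaving out each library were alternatives, and leaving out both libraries of a number was added after the data were seen.

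The members, lists and tests were chosen with earlier results of these data known. All 9 members are named. From each pathway list the members past the threshold are named, at most 4 by adjusted p, or else the member with the smallest p; the 3 genes most like a called member and like those with the highest and lowest fold change are also named. The labels call the replicates biological, and p-values set the difference between the sexes against the spread between these pools.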

Additional observations from a re-analysis of the deposited data

How the results depend on the processing

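The log2 fold changes of Nog, Bmper, Bambi, Fstl1 and Chrd stayed positive, and those of Fst and Chrdl1 negative, in every alternative that tested them. Twsg1 turned negative with library size only (−0.0199), limma-voom (−0.0445) and a replicate block (−0.0437), without male replicate 1 (−0.45), without female replicate 2 (−0.22) and without replicate 1 of both sexes (−0.28), and reached 0.30 without male replicate 2. Bmp2 turned negative without male replicate 1 (−0.0467), male replicate 3 (−0.01) or female replicate 2 (−0.04), and reached 0.39 without male replicate 2. None of these passed the threshold.

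Against 1 member, 128 genes higher and 59 lower, more were called in several settings, and the cause was not tested. No filter, a filter of 1 CPM in 3 libraries and limma-voom called 2 members higher, Bmper and Nog, and 3 with DESeq2, which added Bambi. DESeq2 called 444 genes higher and 327 lower. The GC and length offset called 2 members, 449 genes higher and 433 lower. A replicate block called 4 members, Fstl1 included, with 1997 genes higher and 2167 lower, and the block with the offset called 4 members, with 2145 higher and 2311 lower. The replicate numbers were not shown to pair the samples: deviations of same-numbered male and female libraries correlated over genes at 0.927, 0.852 and −0.07 for numbers 1, 2 and 3, and male replicate 3 correlated best with female replicate 2 (0.590).

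Leaving out 1 library left 0 to 2 members higher, 0 to 141 genes higher and 0 to 32 lower. Leaving out both libraries of a number left 0 to 3 members, 0 to 225 genes higher and 0 to 129 lower; the cause was not tested. In the single-library fits with 0 calls by edgeR, 938 and 884 genes had an unadjusted p under 0.05. Counts of Grem1 and Chrdl1, often under 20 per library, limit what can be said of either gene.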
